A study of Mus musculus with 1 sample.

Results

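The 44 genes described here encode the secreted ligands, receptors, SMAD proteins, antagonists and ID target proteins of TGF-beta, BMP and activin signalling. They were taken by symbol from the array probe sets that name exactly 1 gene. All 44 were measured, by 99 probe sets, out of 18193 genes measured by 34945 such probe sets. The sample was total RNA of KR Primary, a cell line derived from a KR tumor of a B6/J mouse and labelled as lung cancer cells; KR is not spelled out in the labels. The cells were grown without a stated treatment in RPMI1640 medium with 10% fetal bovine serum and collected at 80 to 90% confluency. One line was measured on 1 Affymetrix array, so there is no control group, no replicate, no replicate error and no p-value, and the number of arrays limits the precision of every value.

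TGF-beta, BMPs and activins are secreted dimers that bind pairs of type I and type II receptor kinases. The receptors phosphorylate SMAD2 and SMAD3 after TGF-beta or activin binding, or SMAD1, SMAD5 and SMAD9 after BMP binding. These receptor SMADs enter the nucleus with SMAD4, and the ID genes are well-known BMP targets. In lung epithelium, BMP4 takes part in branching during development, and TGF-beta is known to restrain epithelial growth and to drive mesenchymal change.

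A probe set is a group of short probes whose fluorescence is summarised as 1 signal in arbitrary units. Probe sets differ in brightness for the same amount of RNA, so each was read against a background and signals of different genes give no order of RNA amount. The background line, 16.8, is the 95th percentile of 126 probe sets for genes of smell, pheromone and bitter taste receptors and of hair keratin-associated proteins. The upper background limit, 60.6, is the highest of those probe sets. A gene was called when any of its probe sets exceeded the line.

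Epithelial markers were clear in this line. Of 12 markers listed for lung cancer epithelium, 10 passed the line and 9 the upper limit. Of all genes measured, 63.3% passed the line and 47.5% the upper limit. The lung-defining genes Nkx2-1 and Napsa, at 7.66 and 1.94, did not pass the line, and Sftpc, encoding surfactant protein C, read 21.1 on its higher probe set. Markers of other cells passed the line in 1 of 9 fibroblast, 1 of 5 smooth muscle, 2 of 7 endothelial and 2 of 7 measured leukocyte genes. The leukocyte gene Cd68, at 69.8, was the only one of these above the upper limit.

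As a whole the pathway was called about as often as other genes. Counted singly, 63 of the 99 probe sets (63.6%) exceeded the line, beside 60.9% of all one-gene probe sets, and 44 (44.4%) exceeded the upper limit, beside 41.1%. Of the 44 genes, 31 (70.5%) were above the line, beside 63.3% of all genes measured, and 24 (54.5%) were above the upper limit, beside 47.5% of all genes. Genes with more probe sets have more chances to pass, and weighting all genes to the numbers of probe sets of these 44 gave 70.0% and 54.2%. The median level, taken as each gene's highest probe set and not weighted to numbers of probe sets, was 83.5 for the 44 genes. It was 48.3 for all genes. The count for the 44 genes therefore lay near the share of all genes. In RNA pooled from many cells, fewer expressing cells and less RNA per cell cannot be told apart.

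**Figure D1:**
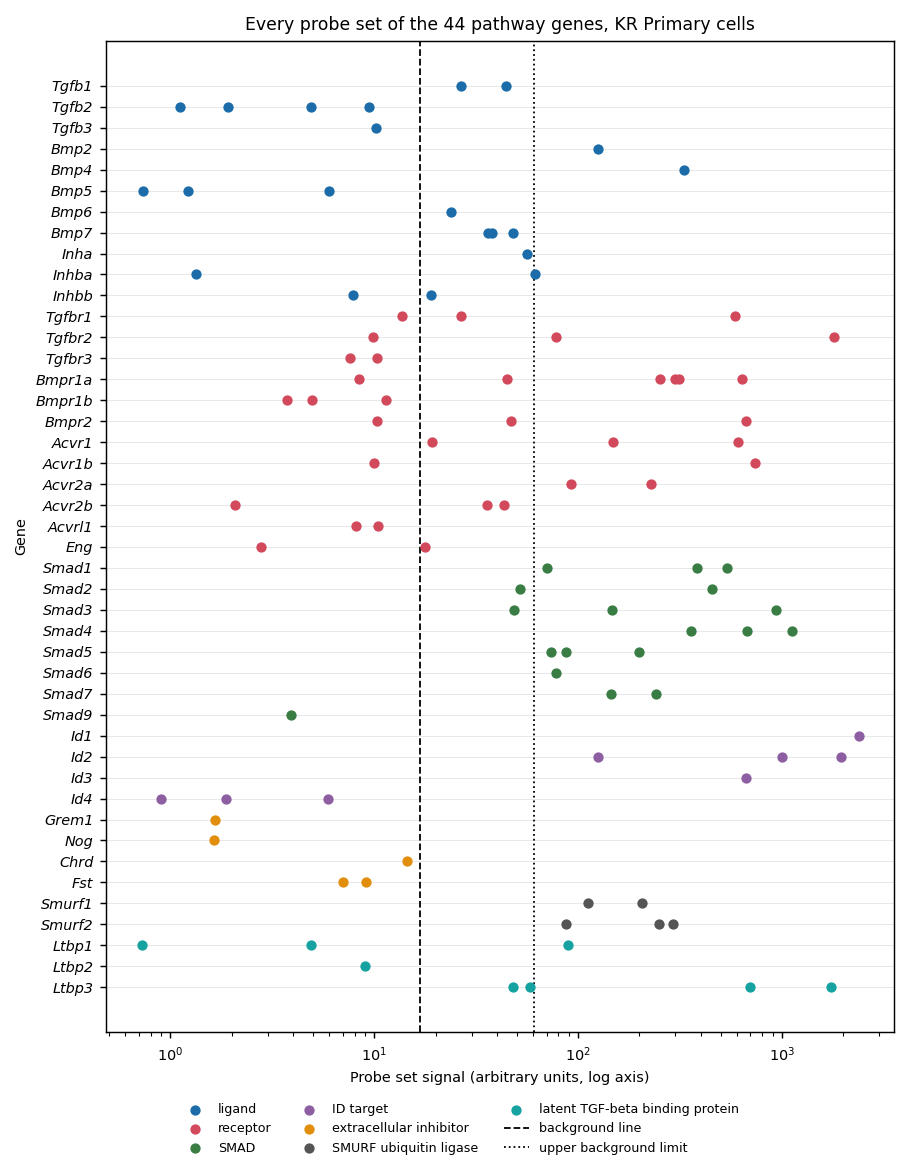
Signal of each of the 99 probe sets (horizontal, arbitrary units, log axis) for the 44 genes in rows, coloured by role; the dashed line is the background line (16.8) and the dotted line the upper limit (60.6). All probe sets of Grem1, Nog, Chrd, Fst, Id4 and Smad9 lie left of the dashed line, and all of Id1, Id2, Id3, Smad4 and both SMURF genes lie right of the dotted line.

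By role, SMAD genes were called in 7 of 8 cases and the 4 secreted antagonists in none. Above the line were 8 of 11 ligand genes, 9 of 12 receptor genes, 7 of 8 SMAD genes, 3 of 4 ID genes, 0 of 4 extracellular inhibitor genes, both SMURF genes and 2 of 3 latent TGF-beta binding protein genes. At the upper limit the counts were 3 of 11 for ligands and 7 of 12 for receptors, and those of the other roles were equal to their counts at the line. All genes were weighted to the numbers of probe sets in each role. Their shares above the line were then 64.6% beside the 72.7% of ligands and 78.9% beside the 75.0% of receptors. They were 71.3% beside the 87.5% of SMADs, 65.3% beside the 75.0% of ID genes and 54.4% beside none of the inhibitors. For SMURF genes the share was 77.3% beside both, and for latent TGF-beta binding protein genes 72.7% beside 66.7%. For groups this small, the counts at the line of all roles except the inhibitors thus lay near the share of all genes. At the upper limit the shares were 48.5% beside the lower 27.3% of ligands and 63.3% beside the 58.3% of receptors. They were 55.5% for SMADs, 49.9% for ID genes, 38.2% for inhibitors, 61.0% for SMURF and 57.2% for latent TGF-beta binding protein genes. When every probe set of a gene had to pass, 2 of 12 receptor genes passed, beside 47.0% of all genes, while 7 SMAD and 3 ID genes did so. This rule asks more of genes with many probe sets, and the 47.0% was not weighted to their numbers. The 12 receptor genes have 34 probe sets, the 8 SMAD genes 18 and the 4 ID genes 8. With the line at the 90th percentile of the background 1 inhibitor gene, Chrd, passed. The median levels were 44.2 for ligands, 406 for receptors, 347 for SMADs, 1310 for ID genes and 5.40 for extracellular inhibitors. The medians are of each gene's highest probe set, not weighted to numbers of probe sets, and give no order of RNA amount between roles. The groups are small, from 2 to 12 genes, and no difference between them was tested.

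**Figure D2:**
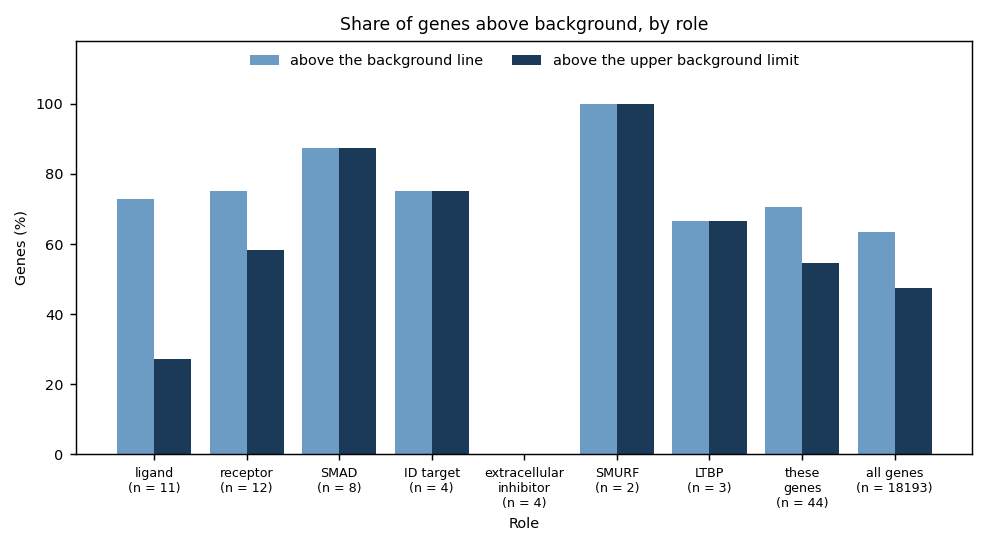
Percentage of genes (vertical) with a probe set above the background line (light bars) and above the upper limit (dark bars) for each role, for the 44 genes together and for all 18193 genes; n is the number of genes, and LTBP stands for latent TGF-beta binding protein. The extracellular inhibitors have no bar because none passed the line, and the ligands differ most between the light and the dark bar.

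Among the ligands, 2 of 5 BMP genes (40.0%) and none of 3 TGF-beta genes exceeded the upper limit. The share of all genes, weighted to the probe set numbers of the ligands, was 48.5%. With so few genes these counts show no difference between the branches, and none was tested. Bmp4, encoding a BMP of lung and gut development, gave 329 on its only probe set. Bmp2, a close relative of Bmp4, gave 125 on its only probe set. Both exceeded the upper limit. Bmp7, encoding a BMP of kidney and epithelium, read 48.2, 38.0 and 36.3. Bmp6, encoding a BMP of iron regulation and bone, read 23.8. All 3 probe sets of Bmp7 and the single one of Bmp6 thus exceeded the line and not the upper limit. Bmp5 read 5.99, 1.22 and 0.733, all below the line.

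Tgfb1, the most widely expressed TGF-beta gene, read 44.2 and 26.6, both between the line and the upper limit. Tgfb2 read 9.42, 4.90, 1.92 and 1.11 on 4 probe sets. Tgfb3 read 10.2 on its only probe set. None of these 5 probe sets of Tgfb2 and Tgfb3 passed the line, and no TGF-beta ligand gene passed the upper limit.

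The inhibin and activin subunits were near the thresholds. Inhba, whose product dimerises into activin A, read 61.8 and 1.33, so that 1 probe set lay just over the upper limit and the other below the line. Inhbb, the subunit of activin B, read 19.1 and 7.84. Inha, the subunit that pairs with either beta subunit to make inhibins, which oppose activin, read 55.9. All 3 genes were called, but the Inhba call at the upper limit and the Inhbb call at the line rested on 1 probe set each that was close to the threshold. By each gene's highest probe set, the values nearest to the line were 14.4 for Chrd below it and 17.7 for Eng above it, and those nearest to the upper limit were 55.9 for Inha below it and 61.8 for Inhba above it.

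Genes for receptors of each branch were above background, in both the type I and the type II class. Of 6 type I receptor genes, 4 (66.7%) passed both thresholds, and of 4 type II receptor genes, all passed the line and 3 (75.0%) the upper limit. All genes, weighted to the probe set numbers of the 12 receptor genes, passed in 78.9% at the line and 63.3% at the upper limit. The counts are thus no trait of these receptors as a group, and the types were not tested against each other. For TGF-beta, the type II receptor gene Tgfbr2 read 1809, 78.2 and 9.86. The type I receptor gene Tgfbr1 read 586, 26.7 and 13.7. Each thus had 1 bright probe set and 1 below the line.

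For BMPs, the type I receptor gene Bmpr1a read 638, 313, 298, 251, 44.6 and 8.42, with 5 of 6 probe sets above the line. Acvr1, another type I receptor gene for BMPs, read 609, 149 and 19.3, all above the line. The type II receptor gene Bmpr2 read 670, 46.6 and 10.4. Bmpr1b, a type I receptor gene known for its part in cartilage, read 11.5, 4.96 and 3.73, all below the line. The BMP type I receptor genes were therefore split, Bmpr1a and Acvr1 being above the upper limit and Bmpr1b not above background.

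For activin, the type I receptor gene Acvr1b read 737 and 10.0. The type II receptor gene Acvr2a, shared by activins and some BMPs, read 227 and 92.1. Its relative Acvr2b read 43.4, 35.8 and 2.07. Acvr2a was above the upper limit on both probe sets, and Acvr2b on none.

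The receptor genes best known from blood vessels were at or near background. Acvrl1, an endothelial type I receptor gene, read 10.5 and 8.17. Eng, encoding the endothelial co-receptor endoglin, read 17.7 and 2.77. The 7 endothelial markers ranged from 1.64 for Tie1 to 30.3 for Kdr, with 14.3 for Pecam1, and none passed the upper limit. Tgfbr3, encoding the co-receptor betaglycan, read 10.3 and 7.61. None of these 3 receptor genes passed the upper limit, and the Eng call lay just over the line.

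Of the 8 SMAD genes, 7 had every probe set above the line, beside 47.0% of all genes, not weighted to numbers of probe sets. One of the 7, Smad6, has only 1 probe set. Smad3, a receptor SMAD of TGF-beta and activin, read 935, 147 and 48.7. Its partner Smad2 read 452 and 52.0. Smad4, the common partner of all receptor SMADs, read 1117, 674 and 357. All 3 genes exceeded the upper limit, and Smad4 did so on each probe set.

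Of the receptor SMADs of BMP, Smad1 read 539, 381 and 70.2. Smad5 read 199, 87.4 and 73.5. Smad9 read 3.90 on its only probe set. Smad1 and Smad5 were above the upper limit on every probe set, whereas the Smad9 probe set was below the line. The inhibitory SMAD genes, which are themselves induced by the pathway, were both above the upper limit. Smad7, an inhibitor of all branches, read 242 and, on a probe set with the suffix _x_at, 144. Smad6, an inhibitor mainly of BMP signalling, read 77.5.

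The ID genes encode small helix-loop-helix proteins that lack a DNA-binding region and sequester transcription factors. Id1 read 2378 on its only probe set. Id2 read 1954, 1004 and 125. Id3 read 667. Id4 read 5.92, 1.86 and 0.898. Each probe set of Id1, Id2 and Id3 was above the upper limit, and no probe set of Id4 passed the line.

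The promoter windows of the ID genes are shown so that the paralogs above and not above background can be set side by side with their sequence. RefSeq windows of build GRCm38.p6, 250 bases before to 50 bases after the annotated start, were matched for 33 of the 44 genes (39 windows). Tgfb3, Bmp2, Bmp7, Tgfbr3, Acvrl1, Smad2, Smad4, Smad7, Id1, Nog and Fst had no window. The windows are Id2 at chr12:25096043-25096342 on the minus strand, Id3 at chr4:136143572-136143871 on the plus strand and Id4 at chr13:48260866-48261165 on the plus strand. Ltbp3, at chr19:5740650-5740949 on the plus strand, is added as the window with few CG dinucleotides of a gene with bright signal. Each is written from 5′ to 3′ along the gene, and capitals mark the CG dinucleotides, the sites of DNA methylation.
Id2: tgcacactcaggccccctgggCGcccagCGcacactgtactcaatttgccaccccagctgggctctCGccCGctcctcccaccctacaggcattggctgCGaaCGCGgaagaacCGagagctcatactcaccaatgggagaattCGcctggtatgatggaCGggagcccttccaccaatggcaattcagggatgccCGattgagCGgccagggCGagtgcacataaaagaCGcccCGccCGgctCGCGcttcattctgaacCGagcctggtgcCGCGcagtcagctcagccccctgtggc
Id3: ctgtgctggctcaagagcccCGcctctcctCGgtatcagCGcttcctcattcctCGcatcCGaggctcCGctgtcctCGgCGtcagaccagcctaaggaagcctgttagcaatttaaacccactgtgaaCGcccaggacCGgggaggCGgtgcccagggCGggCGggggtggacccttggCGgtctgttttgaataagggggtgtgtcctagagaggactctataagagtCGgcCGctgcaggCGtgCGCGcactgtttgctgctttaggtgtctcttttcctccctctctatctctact
Id4: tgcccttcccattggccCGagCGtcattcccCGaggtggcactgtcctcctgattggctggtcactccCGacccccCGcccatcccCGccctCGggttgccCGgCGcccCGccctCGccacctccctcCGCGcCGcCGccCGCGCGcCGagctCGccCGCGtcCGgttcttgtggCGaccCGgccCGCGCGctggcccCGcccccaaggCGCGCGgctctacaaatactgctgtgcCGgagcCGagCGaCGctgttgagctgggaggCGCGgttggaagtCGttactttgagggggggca
Ltbp3: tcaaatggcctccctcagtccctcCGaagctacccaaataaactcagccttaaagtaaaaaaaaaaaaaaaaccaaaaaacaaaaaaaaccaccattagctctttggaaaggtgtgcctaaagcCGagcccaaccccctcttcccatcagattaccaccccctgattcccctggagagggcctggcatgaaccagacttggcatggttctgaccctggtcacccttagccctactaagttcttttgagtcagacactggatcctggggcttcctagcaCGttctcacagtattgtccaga
Id4 had 39 CG dinucleotides in its window, against 21 for Id2 and 19 for Id3, so that among these 3 paralogs the one not above background had the most.

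The median CG content was close in pathway genes above and not above background. The median number of CG dinucleotides per window was 25 in the 19 genes above the upper limit, 25 in the 6 genes between the thresholds and 24 in the 8 genes not above the line. Over all 14452 genes with a window the corresponding medians were 22, 15 and 7. The 8 genes not above the line covered a wide range, with 4 in Bmp5, 5.67 in Bmpr1b, 10 in Tgfb2, 20 in Ltbp2, 28 in Grem1, 31 in Smad9, 34 in Chrd and 39 in Id4. Ltbp3 had 3 with a highest signal of 1746. The difference between the pathway and all genes was not tested, and methylation was not measured.

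**Figure D3:**
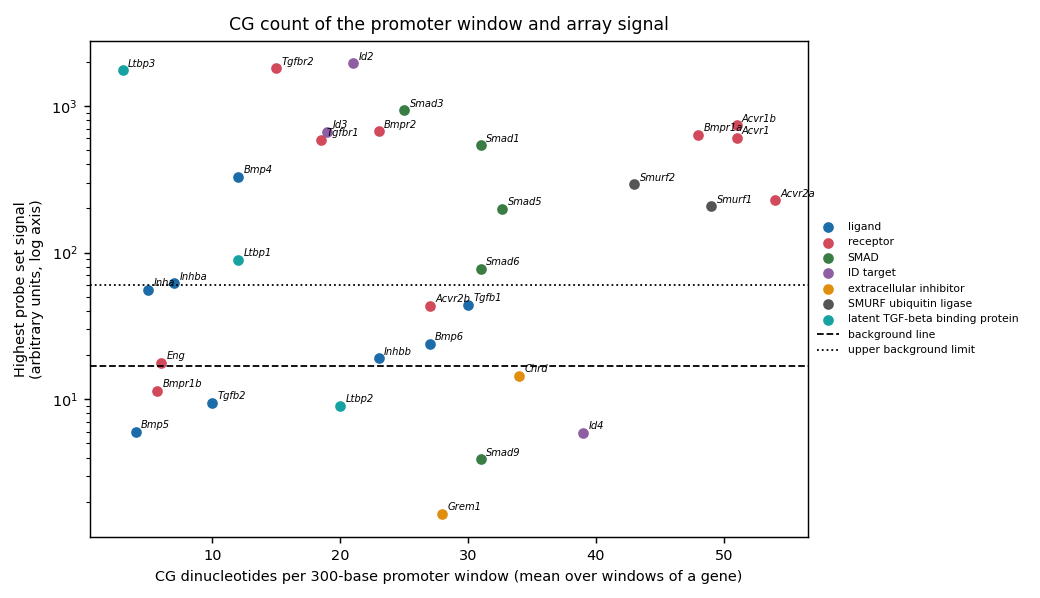
Highest probe set signal of a gene (vertical, arbitrary units, log axis) against the number of CG dinucleotides in its promoter window (horizontal, mean over windows of a gene) for the 33 genes with a window, coloured by role. Genes below the dashed background line spread from 4 (Bmp5) to 39 (Id4), and genes above the dotted upper limit from 3 (Ltbp3) to 54 (Acvr2a).

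The sequence GGCGCC, a GC-rich element known to bind SMAD1 and SMAD5 complexes and its own reverse complement, was found in 12 of the 39 windows (30.8%), beside 11.9% of all 32851 windows. The pathway genes' windows also held more GC, with a median of 65.0% beside 58.7% over all genes with a window, and 2 of the 12 were overlapping windows of Smad5. The 11 genes with the element were 7 of the 19 above the upper limit (Tgfbr1, Bmpr1a, Bmpr2, Acvr1b, Smad5, Id2 and Smurf2), none of the 6 between the thresholds, and 4 of the 8 not above the line (Smad9, Id4, Grem1 and Chrd). On either strand, CCAAT was found in 38.5% of the 39 windows beside 37.4% of all, TATAAA in 7.69% beside 13.6%, and CACGTG in 10.3% beside 7.15%. The palindrome GTCTAGAC, recognised by SMAD3 and SMAD4, was found on either strand in 1 window, that of Smad6, beside 0.213% of all windows. Such matches describe the letters only.

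All 4 extracellular inhibitors were below the line on all 5 of their probe sets. Grem1, encoding the BMP antagonist gremlin, read 1.65. Nog, encoding the BMP antagonist noggin, read 1.63. Chrd, encoding chordin, which traps BMPs, read 14.4, not far under the line. Fst, encoding the activin trap follistatin, read 9.15 and 7.04.

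The SMURF genes encode ubiquitin ligases that mark SMADs and receptors for degradation. Smurf1 read 207 and 112. Smurf2 read 292, 249 and 87.2. All 5 probe sets exceeded the upper limit.

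The latent TGF-beta binding proteins tether inactive TGF-beta to the matrix. Ltbp3 read 1746, 701, 58.3 and 47.7, all above the line, of which the brightest probe set has a name ending in _s_at and can match more than 1 transcript. Ltbp1 read 89.5, 4.91 and 0.723, with 1 of 3 probe sets above the line. Ltbp2, whose product is a relative with a part in elastic fibres, read 8.99. Ltbp3 was thus the member of this group whose call did not depend on 1 probe set.

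Probe sets of one gene often disagreed, about as often as elsewhere on the array. Of the 31 genes with 2 or more probe sets, 14 had all of them above the line, 7 had none above it and 10 (32.3%) were divided, beside 32.9% of all genes with 2 or more. The divided genes were Inhba, Inhbb, Tgfbr1, Tgfbr2, Bmpr1a, Bmpr2, Acvr1b, Acvr2b, Eng and Ltbp1, of which 7 encode receptors. All 12 receptor genes are among the 31, with 34 probe sets, and more probe sets give more chances to be divided. The median SD between probe sets on the log2 scale was 1.57 for these 31 genes and 1.45 for all 9010 such genes, ranging from 0.22 in Bmp7 to 4.39 in Acvr1b. By the median of a gene's probe sets 28 of the 44 genes (63.6%) passed the line, beside 58.8% of all genes. Probe brightness, transcript variants and noise all enter this spread, and their parts were not tested.

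**Figure D4:**
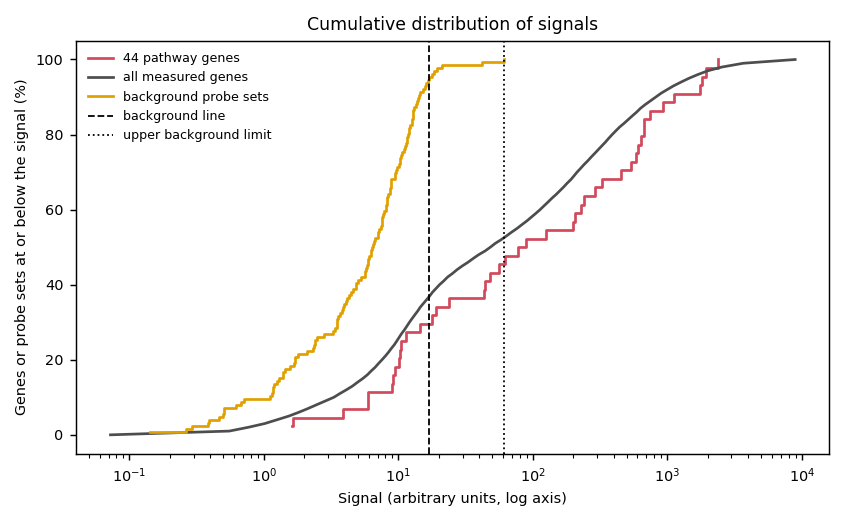
Percentage of genes or probe sets (vertical) at or below a signal (horizontal, arbitrary units, log axis), for the highest probe set of the 44 genes (red), the highest probe set of all 18193 genes (grey) and the 126 background probe sets (yellow). The background set ends at the dotted upper limit of 60.6, and 20 of the 44 genes lie at or below that limit.

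Other genes of the pathway, from lists that exclude the 44, were above the line in 76 of 124 measured cases (61.3%), beside 63.3% of all genes. Above the upper limit were 57 (46.0%), beside 47.5%. The all-gene shares here and for each list below were not weighted to numbers of probe sets. The 124 genes had 284 probe sets. For the 44 genes, with 99 probe sets, the weighted share above the line was 70.0%. Among 16 other ligand genes, 5 (31.25%) exceeded the line and only 1 (6.25%) the upper limit, beside 63.3% and 47.5% of all genes. Bmp8b, encoding a BMP known from germ cells and brown fat, read 166 and 157. The next were Gdf9, an oocyte growth factor gene, at 23.4 and Gdf2, encoding the endothelial ligand BMP9, at 21.3, and the lowest were Lefty2 at 2.14 and Gdf5 at 0.646. Bmp8b was the only one clear of the upper limit.

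The shares of all genes above the line and the upper limit were 63.3% and 47.5%. Above the line were 5 of 8 other receptor and co-receptor genes (62.5%), and 3 (37.5%) exceeded the upper limit. These were Neo1, encoding the guidance receptor neogenin, which binds repulsive guidance molecules, at 328 on its highest probe set, Amhr2, the receptor gene of anti-Müllerian hormone, at 196, and Rgmb, a BMP co-receptor gene, at 131. Both Amhr2 probe sets above the upper limit, at 196 and 181, carry the suffix _x_at, used where some probes match other transcripts, and its remaining one read 40.4. Neo1 exceeded the upper limit on 2 of its 5 probe sets and Rgmb on 1 of its 6. Rgma at 7.82 and Bambi, encoding a decoy receptor induced by BMP, at 6.93 were below the line.

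Other extracellular inhibitors passed the line in 8 of 21 genes (38.1%) and the upper limit in 6 (28.6%), beside 63.3% and 47.5% of all genes. Bgn, encoding the matrix proteoglycan biglycan, read 979, 838 and 700. Htra1, a secreted serine protease gene, read 501 and 344, and Crim1, encoding a membrane protein that binds BMPs, read 303 and 76.5. Vwc2 at 2.42 and Cer1, encoding the antagonist cerberus, at 1.55 were the lowest. The 3 highest thus include a matrix proteoglycan gene and a protease gene that also have other roles.

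Of 18 genes of TGF-beta latency and activation, 13 (72.2%) exceeded the line and 9 of them the upper limit. The shares of all genes were 63.3% and 47.5%. The list has 44 probe sets, and 72.4% of all genes with 2 probe sets and 82.3% with 3 passed the line. The counts of this list thus lay near the share of all genes, and no difference was tested. The integrin genes Itgav and Itgb1, whose products include receptors that release TGF-beta from its latent complex, reached 2657 and 2554. Thbs1, encoding thrombospondin, another activator, read 1532 and 502. Itgb8 at 6.31 and Tll1, a protease gene, at 0.437 were the lowest. Itgav was above the upper limit on 2 of its 5 probe sets only. Itgb1 was above it on 3 of its 6, and its others, at 13.8, 8.66 and 6.61, were below the line.

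Of 31 genes of intracellular regulators and cofactors, 29 (93.5%) exceeded the line and 28 of them (90.3%) the upper limit, with a median level of 328. The shares of all genes were 63.3% and 47.5%, not weighted to numbers of probe sets. The list has 102 probe sets, and 82.3% of all genes with 3 probe sets and 87.5% with 4 passed the line. Fkbp1a, encoding a protein that keeps type I receptors inactive, reached 6005, Xiap, an inhibitor of apoptosis, 2623 and Tob1, an antiproliferative gene, 1677. The 2 not called were Foxh1, a SMAD partner of early embryos, at 13.3 and Runx3, a transcription factor gene, at 6.16. Fkbp1a exceeded the upper limit on 4 of its 5 probe sets, Xiap on 2 of 7 and Tob1 on 2 of 2, the lower at 60.8. Many of the listed genes, such as Xiap and Fkbp1a, also act outside this pathway.

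The target lists of both branches are given by their counts, and no difference between them was tested. Of 22 genes known as targets of SMAD2 and SMAD3, 17 (77.3%) exceeded the line and 13 of them (59.1%) the upper limit. The shares of all genes were 63.3% and 47.5%. The median level of these targets was 285. Ccn2, a matricellular protein gene, read 3344, Bhlhe40, a transcription factor gene, read 1564, and Thbs1 has its values above. Tagln at 7.16 and Tgfbi at 7.13 were the lowest. Among the 22, Col1a1, Col1a2, Acta2 and Tagln are also markers of fibroblasts or smooth muscle, and 2 of these 4 were above the line with none above the upper limit, against 15 and 13 of the other 18. Another 5 of the 22 also stand in the regulator or latency lists.

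Of 14 measured genes known as targets of BMP, beyond the ID and inhibitory SMAD genes, 4 (28.6%) exceeded the line. The upper limit was exceeded by 2 of them (14.3%), and the median level was 12.5. The shares of all genes were 63.3% and 47.5%. Klf10, a gene induced early by TGF-beta as well as BMP, read 194, Msx1, a homeobox gene, read 63.7 and 30.4, and Hamp, encoding the liver hormone hepcidin, read 29.0 and 8.75. Atoh8 at 4.06 and Gata3 at 0.654 were the lowest. Several genes of this list are known mainly from bone, liver or limb. Id1, Id2 and Id3 were thus above the upper limit on an array on which 12 of these 14 other BMP targets were not. Most of the listed targets also respond to other signals, and these levels do not measure the activity of the pathway.

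**Figure D5:**
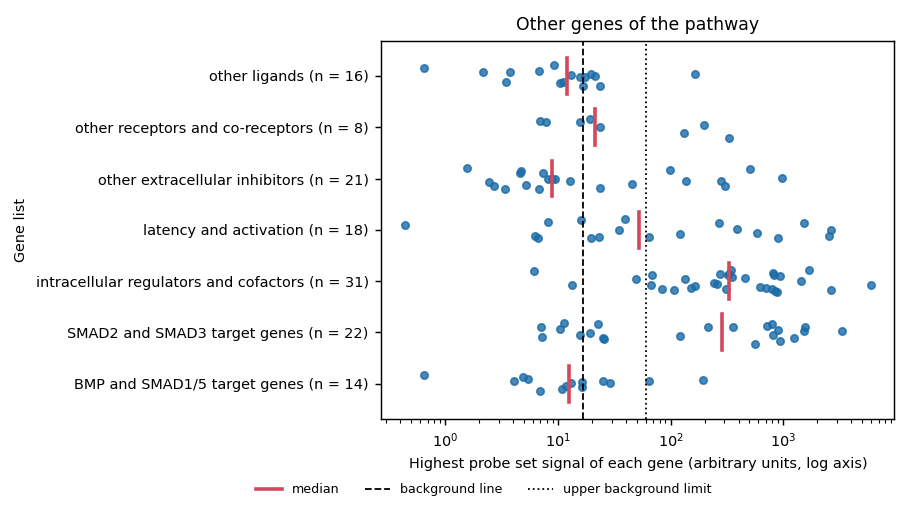
Highest probe set signal of each other pathway gene (horizontal, arbitrary units, log axis) by list (rows, n measured genes), with the list median as a red bar; the dashed line is the background line and the dotted line the upper limit. The medians of other ligands, other extracellular inhibitors (8.86) and BMP targets (12.5) lie left of the dashed line, and those of intracellular regulators (328) and SMAD2 and SMAD3 targets (285) lie right of the dotted line; genes in 2 lists are drawn in each.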

How the data were processed

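Biotin-labelled cRNA was made from 150 ng of total RNA, per the labels' protocols. The authors deposited 1 linear signal intensity for each of 45101 probe sets. Per the submitters' processing notes, Affymetrix Expression Console was used. The sources used here do not give its algorithm, scaling or background correction. Probe sets were named from the platform annotation: 34945 named 1 gene, 932 several and 9160 none here, beside 64 controls. Symbols were updated through gene IDs with RefSeq (GRCm38.p6) for 34741 probe sets. The 1 probe set that names a pathway gene together with another gene read 11.9, below the line, and was not used.

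The members, lists and background set were chosen with earlier results of these data known. Every one of the 44 genes is named, and of each other list the 3 highest and 2 lowest genes. Other names were chosen after their values were seen. No test between groups was possible with 1 sample. The calling rule was tested on simulated data. Alternatives changed the line to the 90th or 99th percentile, the background set, the probe sets admitted, the symbols and the rule that combines probe sets. Python 3.11.15, numpy 2.4.6, pandas 2.3.3 and matplotlib 3.10.9 were used.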

Additional observations from a re-analysis of the deposited data

How the results depend on the processing

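Of 126 counts recomputed under 8 alternatives, 113 stayed within 1.5 times. The genes of the pathway above the line numbered 31, and from 21 to 32 under the alternatives, while the share of all genes moved with them from 47.0% to 66.7%. Requiring all probe sets of a gene to pass gave 13 genes above the upper limit in place of 24. The share of all genes above it moved with them, from 47.5% to 27.3%. At the line this rule gave 2 receptor genes, 1 latent TGF-beta binding protein gene and 19 regulators. It also gave 8 latency genes, 3 other receptor genes and 2 BMP targets. With this rule 10 calls were lost, and the alternative itself asks more of genes with many probe sets. The median rule gave 1 latent TGF-beta binding protein gene. The 90th percentile gave 1 extracellular inhibitor, Chrd. The 99th percentile gave 1 other ligand, 3 other receptor genes and 2 BMP targets. A background without olfactory and vomeronasal receptors gave 3 other ligands. Calls of 20 genes held and 12 genes stayed uncalled under every alternative run.

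The limits are the single array, values read without scanner files or detection calls, which were not used here, and an upper limit set by 1 background probe set, Krtap12-1, the next highest being 42.2. Without keratin-associated genes the upper limit was 19.2, and 29 of the 44 genes and 60.8% of all genes exceeded it. No paired analysis was possible because there is 1 sample.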
